A study of Homo sapiens with 16 samples.

Results

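The MHC class I antigen presentation genes followed here are 9 genes given by name: the heavy chain genes HLA-B, HLA-C and HLA-E, the light chain gene B2M, the peptide transporter genes TAP1 and TAP2, the peptide loading gene TAPBP, the immunoproteasome gene PSMB9 and the transactivator gene NLRC5. They were found by gene symbol, and make up 9 of the 58302 genes counted in each library. The rule uses names alone and no expression value. The names were chosen with earlier results of these data known, so counts of calls set beside all genes are descriptive. The libraries are polyA RNA from VCaP, a human prostate cancer cell line that carries the TMPRSS2-ERG fusion. Ver cells had been kept for 4 months in 1 µM enzalutamide, a drug that blocks androgen action, and Vc cells for 4 months in ethanol. All cells were then starved of steroids for at least 48 h in medium with charcoal-stripped serum and no phenol red. In each line, 2 libraries were made after 24 h with 1 nM dihydrotestosterone (DHT, an androgen), 2 with DHT plus 1 µM enzalutamide, 2 with enzalutamide alone and 2 with neither (control), 16 libraries in 8 groups. Ver and Vc are 1 line each, and the labels do not say whether the libraries of a group came from separate cultures. P-values therefore measure the spread between these libraries, which may be technical. The library names place all Ver libraries in lane L002 and all Vc libraries in lane L008, so line and lane cannot be told apart.

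MHC class I molecules carry short peptides from inside the cell to its surface, where CD8 T cells and natural killer cells read them. The proteasome cuts proteins into peptides, the TAP1-TAP2 transporter pumps the peptides into the endoplasmic reticulum, and tapasin (TAPBP) helps to load them onto a heavy chain paired with beta-2 microglobulin (B2M). Interferons raise most of these genes through interferon-stimulated response elements (ISREs) and through NLRC5, which works with the RFX, CREB and NF-Y factors on a shared promoter module. Loss of class I molecules is a known route by which tumour cells escape T cells, and prostate cancers are known for low class I levels.

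Because several of these genes moved together, their promoters are shown first. The 250 bases before the start site were taken from RefSeq (GRCh38.p14) for 7 of the 9 genes. No entry was matched for HLA-E and NLRC5, and of the 2 entries for TAP1 the first is shown. The sequences below are those of the genes that the DHT results turn on. Each is on the gene's own strand, ends at the base before the start site, and is reference sequence, not that of VCaP. Capitals mark letters of 4 searched motifs, on either strand: GAAA, any 2 bases and GAAA (the ISRE core), GAANNGAAA (a shorter ISRE-like motif, N being any base), TGACG (as in the X2 box that CREB factors bind) and CCAAT (the box that NF-Y binds). The motifs were chosen after expression values were known.
B2M, chr15:44711267-44711516, plus strand: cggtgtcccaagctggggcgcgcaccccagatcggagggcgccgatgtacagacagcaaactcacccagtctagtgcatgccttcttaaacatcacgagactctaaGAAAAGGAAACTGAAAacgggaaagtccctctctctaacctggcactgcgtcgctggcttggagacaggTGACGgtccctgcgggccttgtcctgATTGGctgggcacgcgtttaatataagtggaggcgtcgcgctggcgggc
HLA-B, chr6:31357180-31357429, minus strand: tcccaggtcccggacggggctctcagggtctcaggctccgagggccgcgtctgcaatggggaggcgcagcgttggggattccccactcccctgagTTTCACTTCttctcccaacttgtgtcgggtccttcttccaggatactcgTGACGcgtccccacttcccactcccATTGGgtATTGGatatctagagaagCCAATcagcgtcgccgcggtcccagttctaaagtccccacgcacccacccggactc
HLA-C, chr6:31272093-31272342, minus strand: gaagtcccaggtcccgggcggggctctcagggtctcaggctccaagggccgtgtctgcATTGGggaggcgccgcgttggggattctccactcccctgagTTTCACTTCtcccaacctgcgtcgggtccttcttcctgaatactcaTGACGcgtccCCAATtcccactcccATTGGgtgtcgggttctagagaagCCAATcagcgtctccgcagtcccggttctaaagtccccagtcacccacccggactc
TAP1, chr6:32853705-32853954, minus strand: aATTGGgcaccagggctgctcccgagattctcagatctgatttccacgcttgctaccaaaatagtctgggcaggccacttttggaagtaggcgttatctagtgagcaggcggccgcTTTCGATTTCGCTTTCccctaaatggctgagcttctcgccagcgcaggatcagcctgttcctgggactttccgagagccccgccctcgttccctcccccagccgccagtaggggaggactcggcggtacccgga
TAP2, chr6:32838740-32838989, minus strand: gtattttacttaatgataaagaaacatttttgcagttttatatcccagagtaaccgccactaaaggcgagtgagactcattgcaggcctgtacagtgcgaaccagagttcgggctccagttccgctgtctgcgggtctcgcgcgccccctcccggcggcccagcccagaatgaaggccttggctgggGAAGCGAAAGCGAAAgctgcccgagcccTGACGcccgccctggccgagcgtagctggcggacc

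HLA-B and HLA-C each held 1 GAANNGAAA match, which began 155 and 151 bases before the start, 1 TGACG match, and 3 and 4 CCAAT matches. B2M held 2 overlapping ISRE core matches (beginning 144 and 138 bases before the start), 1 TGACG and 1 CCAAT. TAP1 held 2 overlapping ISRE core matches and 1 CCAAT. TAP2 held 1 ISRE core match that overlapped a GAANNGAAA match, and 1 TGACG. TAPBP held 2 overlapping ISRE core matches, and PSMB9 held 1 TGACG and 1 CCAAT. The TAP1 and PSMB9 windows overlap at their far ends, and the CCAAT match of each is the same stretch of bases. The ISRE core matches of TAP1 lie between the start sites of both genes, beyond the PSMB9 window. Of all 35116 RefSeq promoters of this length, 3.02% held the ISRE core, 6.56% GAANNGAAA, 21.2% TGACG and 32.0% CCAAT. The androgen response half-site AGAACA was in 12.4% of them and in none of these 7 windows, which are too few to tell from that share. Interferon-type motifs stood in the windows of genes that rose with DHT (B2M, HLA-B) and of genes that fell (TAP1, TAP2). A match is a description of the letters and not of a bound site.

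All genes but B2M (chromosome 15) and NLRC5 (chromosome 16) lie in the MHC region of chromosome 6. Per kilobase of exon (RPKM over GENCODE 29 exon lengths), TAPBP and B2M were the high members and the other 7 were low. The length counts every base in any annotated exon of a gene (6079 for B2M, 5056 for TAPBP and 3072 for PSMB9). Where the transcript in use is shorter, RPKM is too low, so the order between genes depends on these lengths. Over the 8 group means, TAPBP ran from 34.8 to 43.8 RPKM and B2M from 12.8 to 39.4 RPKM. TAP1 ran from 0.765 to 2.51 RPKM, TAP2 from 0.464 to 1.43, HLA-C from 0.782 to 3.14, HLA-B from 0.174 to 1.44 and HLA-E from 0.106 to 0.822 RPKM. PSMB9 reached at most 0.408 RPKM and NLRC5 0.0933 RPKM. In Ver control cells the order was TAPBP (42.4 ± 0.340), B2M (12.8 ± 0.473), HLA-C (2.59 ± 0.332), TAP1 (1.82 ± 0.200), TAP2, HLA-E, HLA-B, PSMB9 and NLRC5 (RPKM, mean ± SD, n = 2). In Vc control cells TAP1 (2.18 ± 0.068 RPKM) and TAP2 (1.43 ± 0.052 RPKM) stood above HLA-C (1.07 ± 0.222 RPKM). In Ver control cells TAP2 (1.26 RPKM) and HLA-E (0.822 ± 0.312 RPKM) did not overlap, while HLA-E and HLA-B (0.704 ± 0.083 RPKM) differed by less than their spread.

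Gene totals were 8155244 to 13273523 counts per library, and 22553 genes passed the filter on low counts. The VCaP label held: 7 prostate luminal markers (KLK3, KLK2, TMPRSS2, ERG, KRT8, KRT18, EPCAM) summed to 2984 to 9549 CPM (counts scaled to library size), while 4 leukocyte markers summed to 0.178 to 2.01 CPM, with CD3E at 0 counts in 15 of the 16 libraries. HLA-B was counted 351 times over all libraries, HLA-E 211, NLRC5 88 and PSMB9 76 times, against 25249 for B2M and 34632 for TAPBP. HLA-E passed the filter through the 8 Ver libraries and 1 Vc library, PSMB9 through 4 Ver libraries (control and enzalutamide) and NLRC5 through 1 enzalutamide library of each line. A call on these 3 genes in a contrast with those groups is therefore of a gene kept because it was high there. HLA heavy chain genes share long stretches of near-identical sequence. The files list 0 reads as aligned to several places, and how shared reads were treated is not given in the sources used here, so counts of HLA-B, HLA-C and HLA-E are uncertain between paralogs. Counting ignored strand, and TAP1 shares 9.49% of its exon bases with PSMB8-AS1 (10 counts in all), TAP2 32.3% with AL669918.1 (0 counts), HLA-B 18.9% with HLA-C and a pseudogene, and PSMB9 5.66% with PSMB8 and PSMB8-AS1. Reads in bases shared with another gene are ambiguous and not counted, while RPKM divides by all exon bases. The RPKM of genes with shared bases, TAP2 most of all, may therefore be too low. In bulk RNA, fewer cells with a transcript and less of it per cell cannot be told apart.

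**Figure D1:**
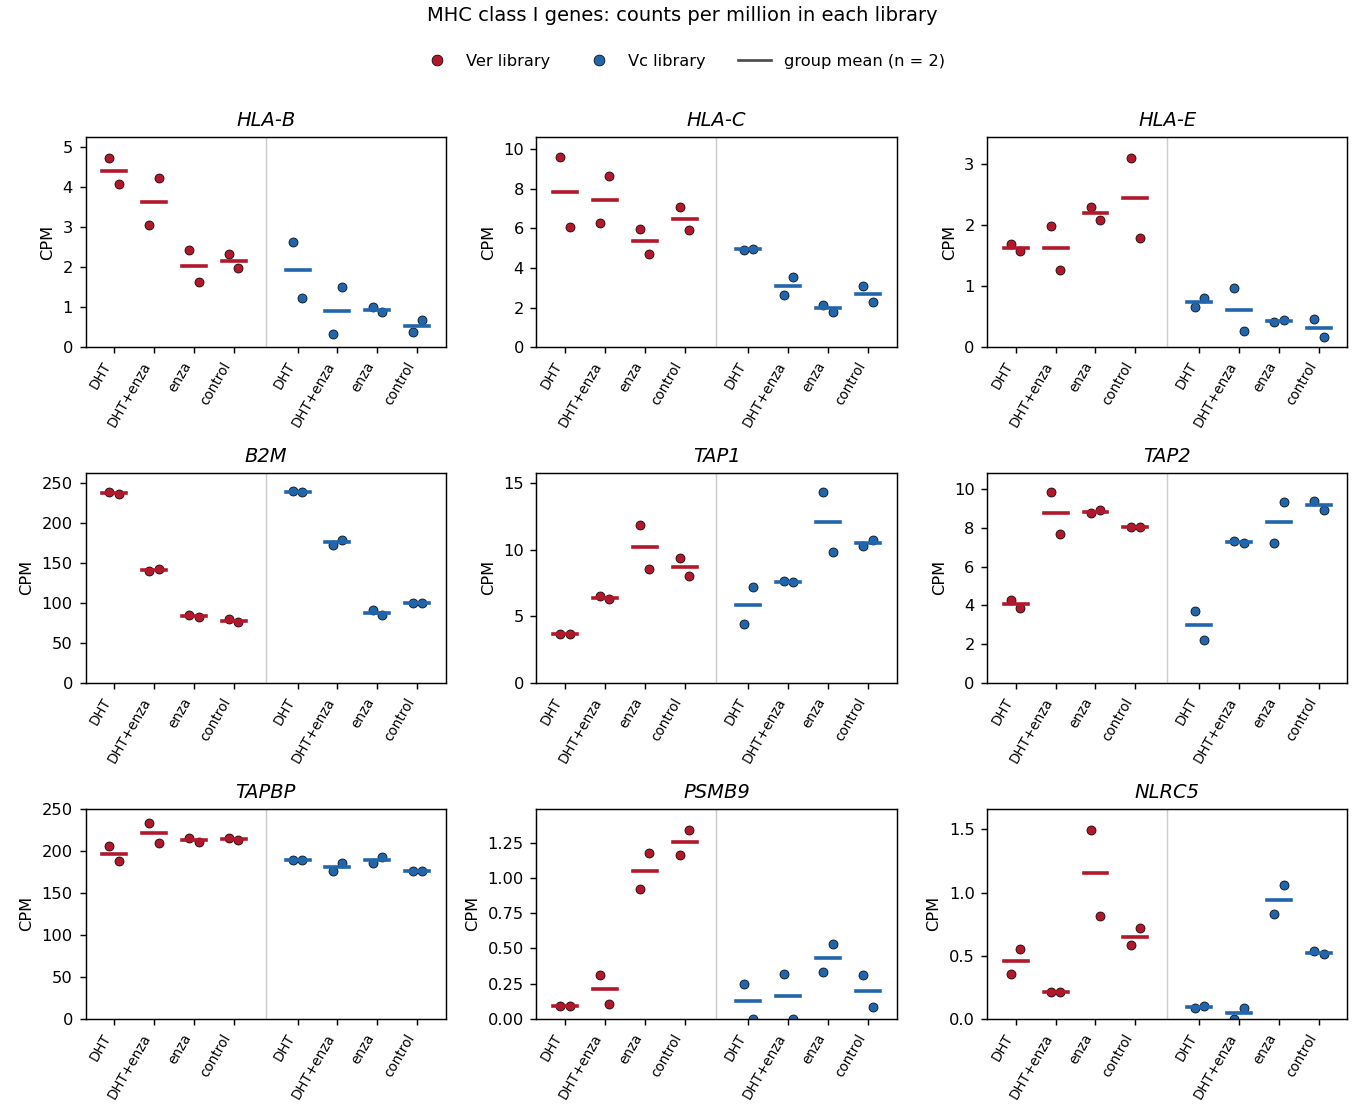
Level of each of the 9 genes in every library, in CPM (vertical axis, linear from 0, a scale of its own in each panel), with Ver libraries in red, Vc libraries in blue and the mean of the 2 libraries of a group as a bar. B2M is highest with DHT in both lines (236 to 240 CPM), TAP1 and TAP2 are lowest with DHT, and the group means of the 3 HLA genes lie higher in Ver than in Vc under each treatment.

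The first question is what the androgen did to the class I pathway. DHT split it: the light chain gene B2M and the heavy chain gene HLA-B were higher with DHT in both lines, and both transporter genes were lower in both. In Ver, 2 of the 9 genes were called higher and 3 lower, against 44.1% of all tested genes called in either direction. The lower genes include PSMB9, which passed the filter on low counts only through Ver control and enzalutamide libraries. In Vc, 3 were called higher and 2 lower, against 44.3% of all tested genes. With 5 of 9 genes called in each line, these counts are near what the whole transcriptome showed under DHT. The median log2 change of the 9 genes was -0.51 in Ver and 0.11 in Vc, beside -0.041 in Ver and -0.036 in Vc over all tested genes. The Ver median is the value of NLRC5, which had under 10 counts in 13 libraries, and the Vc median is that of TAPBP. Neither gene was called.

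B2M encodes the light chain that class I heavy chains need to leave the endoplasmic reticulum. It had 239 and 236 CPM in Ver with DHT, against 80.0 and 75.9 CPM in Ver control. In Vc it had 240 and 239 CPM with DHT, against 99.9 and 101 CPM in control. The 2 lines reached the same level with DHT from unequal controls, and no library with DHT overlapped any control. The rise was 3.05-fold in Ver (log2 change 1.61, SE 0.062, adjusted p = 4.1e-54) and 2.39-fold in Vc (1.26, SE 0.060, adjusted p = 6.4e-44).

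HLA-B, a classical heavy chain gene, had 4.73 and 4.06 CPM in Ver with DHT, against 2.33 and 1.97 CPM in Ver control. In Vc it had 2.63 and 1.22 CPM with DHT, against 0.385 and 0.680 CPM in control. In both lines the DHT libraries lay above the control libraries, and the Vc values with DHT were far apart. The log2 change was 1.03 in Ver (SE 0.40, adjusted p = 0.0249) and 1.88 in Vc (SE 0.56, adjusted p = 0.00158). Both calls rested on single libraries. In Ver the adjusted p was 0.0585 without control replicate 1, 0.148 without control replicate 2, 0.134 without DHT replicate 1 and 0.137 with DESeq2, with a range of 0.00853 to 0.148 over 9 alternatives. In Vc the log2 change was 1.20 without DHT replicate 1 (adjusted p = 0.182, range 3.4e-04 to 0.182).

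HLA-C, the second classical heavy chain gene, had 9.63 and 6.09 CPM in Ver with DHT, against 7.08 and 5.90 CPM in Ver control. In Vc it had 4.93 and 4.98 CPM with DHT, against 3.08 and 2.29 CPM in control. The Ver groups overlapped and the Vc groups did not. Its log2 change was 0.87 in Vc (SE 0.30, adjusted p = 0.00954), and 0.28 in Ver, which was not called (adjusted p = 0.396). The Vc call was lost without control replicate 2 (0.119, range 0.00864 to 0.119). HLA-E, the heavy chain gene whose product is read by the NKG2A receptor of natural killer cells, had 1.69 and 1.57 CPM in Ver with DHT, against 3.10 and 1.79 CPM in Ver control, and 0.657 and 0.813 CPM in Vc with DHT, against 0.462 and 0.170 CPM in Vc control. The groups did not overlap in either line, with opposite directions, but neither change was called (log2 change -0.58 in Ver, adjusted p = 0.373, and 1.15 in Vc, adjusted p = 0.199).

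TAP1 and TAP2 encode the 2 subunits of the peptide transporter, and they fell together. TAP1 had 3.66 and 3.69 CPM in Ver with DHT, against 9.41 and 8.05 CPM in Ver control, and 4.43 and 7.21 CPM in Vc with DHT, against 10.2 and 10.7 CPM in Vc control. TAP2 had 4.28 and 3.88 CPM in Ver with DHT, against 8.05 and 8.05 CPM in Ver control, and 3.70 and 2.24 CPM in Vc with DHT, against 9.39 and 8.92 CPM in Vc control. Every DHT library lay below both controls of its line for both genes. TAP1 was 2.37-fold lower in Ver (log2 change -1.24, SE 0.24, adjusted p = 3.6e-06) and 1.82-fold lower in Vc (-0.87, SE 0.22, adjusted p = 3.6e-04). TAP2 was 1.97-fold lower in Ver (-0.98, SE 0.24, adjusted p = 2.9e-04) and 3.03-fold lower in Vc (-1.60, SE 0.25, adjusted p = 7.2e-09). The TAP1 call in Vc was lost without Vc DHT replicate 1, the lower of the DHT libraries (log2 change -0.54, adjusted p = 0.104, range over alternatives 6.1e-05 to 0.104).

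TAPBP encodes tapasin, which bridges the transporter and the heavy chain. It was close to level: 205 and 187 CPM in Ver with DHT, against 215 and 213 CPM in Ver control, and 189 and 189 CPM in Vc with DHT, against 175.7 and 176.5 CPM in Vc control. The groups did not overlap in either line, but neither log2 change was called (-0.12 in Ver, adjusted p = 0.0668, and 0.11 in Vc, adjusted p = 0.126). Without Ver DHT replicate 1 the Ver change was -0.19 and called (adjusted p = 0.0220, range 0.0220 to 0.576).

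PSMB9 encodes LMP2, a catalytic subunit of the immunoproteasome, and its promoter faces that of TAP1 with 488 bases between the start sites. It had 1 and 1 counts in Ver with DHT, against 12 and 15 counts in Ver control. That is 2 against 27 counts, a ratio of 0.0634 (95% exact counting interval 0.00730 to 0.252; counting error only), and it was called lower (log2 change -3.63, SE 1.36, adjusted p = 0.00253). This call is of a gene that passed the filter on low counts only through Ver control and enzalutamide libraries. In Vc PSMB9 had 3 and 0 counts with DHT, against 4 and 1 in control, too few to show a change of that size (adjusted p = 0.771). NLRC5 encodes the class I transactivator. It had 4 and 6 counts in Ver with DHT, against 6 and 8 in Ver control, and 1 and 1 counts in Vc with DHT, against 7 and 6 in Vc control. Neither difference was called (log2 change -0.51 in Ver, adjusted p = 0.672, and -2.39 in Vc, adjusted p = 0.0748).

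**Figure D2:**
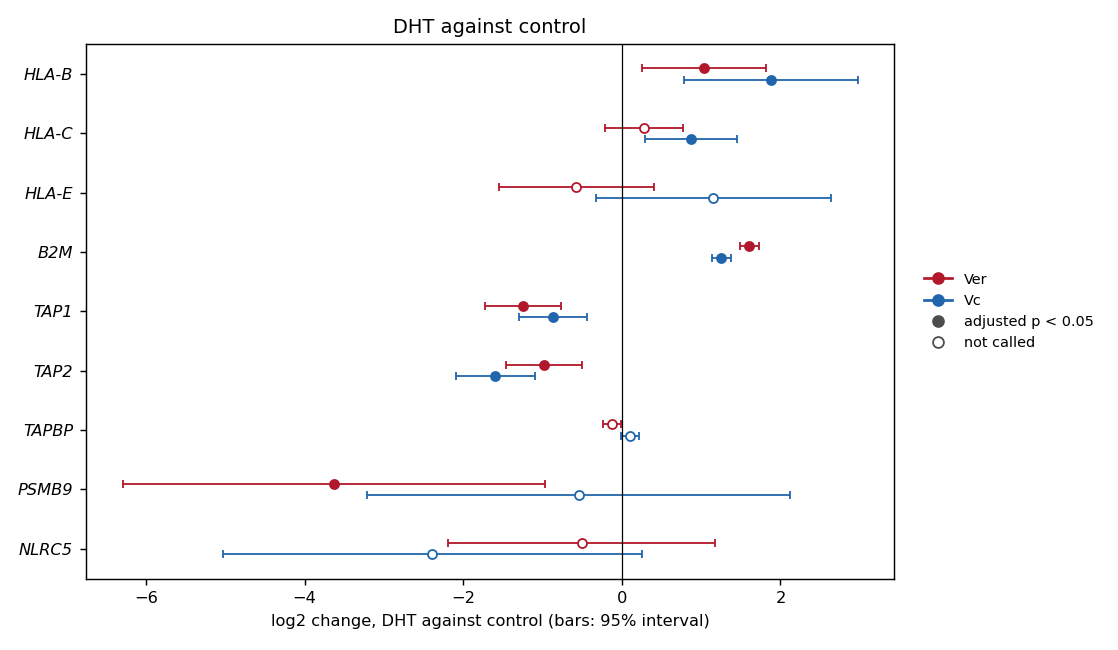
Log2 change of the 9 genes with DHT against control (horizontal axis), with Ver in red above Vc in blue for each gene, bars giving the 95% interval and filled points marking an adjusted p under 0.05. B2M sits at 1.61 in Ver and 1.26 in Vc with narrow bars, TAP1 and TAP2 lie between -0.87 and -1.60, and the bars of PSMB9, NLRC5 and HLA-E are wide.

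The DHT response was compared between the lines by an interaction term. B2M was the only one of the 9 genes called: its log2 change was 0.35 larger in Ver (SE 0.086, adjusted p = 0.00647). Over all genes 2.32% were called for this difference. The call was lost without Ver control replicate 2 (log2 difference 0.31, adjusted p = 0.0970, range over 13 alternatives 0.00395 to 0.0970). The 95% intervals of the heavy chain and transporter genes included 0 and were wider than that of B2M (0.18 to 0.52): -2.19 to 0.50 for HLA-B, -1.36 to 0.17 for HLA-C, -3.50 to 0.048 for HLA-E, -1.02 to 0.26 for TAP1 and -0.069 to 1.31 for TAP2, all in log2 units. The difference for TAPBP was -0.23 (95% interval -0.38 to -0.071, adjusted p = 0.125), not called after adjustment, and it was called without Ver DHT replicate 1 (-0.29, adjusted p = 0.0485, range 0.0485 to 0.546).

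The second question is what enzalutamide did, alone and on top of DHT. Alone, it moved none of the 9 genes past the threshold in either line by edgeR's quasi-likelihood test, against 1.13% of all genes in Ver and 0.537% in Vc. At an unadjusted p under 0.05 there were 0 genes in Ver and 1 in Vc (B2M), and DESeq2 called 0 in both. B2M had 85.5 and 82.2 CPM in Ver with enzalutamide, against 80.0 and 75.9 CPM in Ver control, and 90.9 and 85.0 CPM in Vc with enzalutamide, against 99.9 and 101 CPM in Vc control. The groups lay apart in opposite directions in the 2 lines, with log2 changes of 0.10 in Ver (adjusted p = 0.700) and -0.19 in Vc (adjusted p = 0.230). The difference between those changes was 0.29 (adjusted p = 0.555). For this difference 0 of 9 genes were called by edgeR or DESeq2, 1 (B2M) at an unadjusted p under 0.05, beside 0.0222% of all genes called by edgeR. The median log2 change of the 9 genes was -0.0079 in Ver and 0.21 in Vc, beside -0.0055 in Ver and 0.0040 in Vc over all genes.

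With enzalutamide added to DHT, B2M was lower and TAP2 higher than with DHT alone in both lines. In Ver with both compounds, against DHT alone, 3 of the 9 genes were called higher and 1 lower, beside 26.9% of all genes called. In Vc 1 was higher and 1 lower, beside 22.4% of all genes. The members' share was above the background in Ver (44.4%) and near it in Vc (22.2%). That contrast rests on few genes and was not tested, and the Ver calls of TAP1 and TAPBP were lost under some alternatives. The median log2 change of the 9 genes was -0.0046 in Ver and -0.22 in Vc, beside 0.016 in each line over all genes. Both medians are the value of HLA-E, which was not called and passed the filter mostly through Ver libraries. The same DHT libraries stand in this contrast and in that of DHT against control, so opposite signs in both are not independent.

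B2M had 140 and 142 CPM in Ver with both compounds, against 239 and 236 CPM in Ver with DHT. In Vc it had 172 and 180 CPM with both, against 240 and 239 CPM with DHT. The libraries with both compounds lay between those with DHT and the controls in each line. B2M was 1.69-fold lower in Ver (log2 change -0.76, SE 0.059, adjusted p = 2.5e-23) and 1.36-fold lower in Vc (-0.45, SE 0.058, adjusted p = 6.0e-11). Against control it was still higher, by 0.85 log2 units in Ver (adjusted p = 9.1e-25) and 0.81 in Vc (adjusted p = 2.4e-25). The effect on top of DHT was larger in Ver, with a log2 difference of -0.31 between the lines (SE 0.083, adjusted p = 0.0283), where 1.29% of all genes and 1 of the 9 were called. That call was lost when any 1 of the 8 libraries of the contrast was left out (adjusted p 0.0566 to 0.179) and with no filter on low counts (0.0640), over a range of 0.0118 to 0.179.

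TAP2 was higher with both compounds than with DHT in each line, and TAP1 in Ver. TAP1 had 6.49 and 6.32 CPM in Ver with both, against 3.66 and 3.69 CPM with DHT, and 7.62 and 7.58 CPM in Vc with both, against 4.43 and 7.21 CPM with DHT. TAP2 had 9.84 and 7.68 CPM in Ver with both, against 4.28 and 3.88 CPM with DHT, and 7.30 and 7.22 CPM in Vc with both, against 3.70 and 2.24 CPM with DHT. All libraries with both compounds lay above those of their line with DHT. The log2 change of TAP2 was 1.10 in Ver (SE 0.24, adjusted p = 9.2e-05) and 1.26 in Vc (SE 0.26, adjusted p = 2.2e-05). For TAP1 it was 0.80 in Ver (SE 0.26, adjusted p = 0.0100) and 0.41 in Vc, which was not called (adjusted p = 0.213). The Ver call of TAP1 was lost without DHT plus enzalutamide replicate 1 (0.0618) or DHT replicate 1 (0.0537), with a range of 0.0102 to 0.0618, and TAP1 was called in Vc without DHT replicate 2 (log2 change 0.78, adjusted p = 0.0452, range 0.0452 to 0.917).

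The heavy chain genes did not pass the test here. HLA-B had 3.04 and 4.21 CPM in Ver with both compounds, against 4.73 and 4.06 CPM with DHT, and 0.321 and 1.50 CPM in Vc with both, against 2.63 and 1.22 CPM with DHT. The groups overlapped in both lines. In Vc its log2 change was -1.13 (adjusted p = 0.0818), and it was called without Vc DHT replicate 2 (-1.55, adjusted p = 0.0285) and without Vc DHT plus enzalutamide replicate 2 (-2.57, adjusted p = 0.00493, range 0.00493 to 0.745). HLA-C had 2.65 and 3.52 CPM in Vc with both, against 4.93 and 4.98 CPM with DHT (log2 change -0.69, adjusted p = 0.0773). TAPBP was called in Ver with a small log2 change of 0.17 (233 and 210 CPM with both, against 205 and 187 CPM with DHT; SE 0.057, adjusted p = 0.0141). That call was lost without DHT plus enzalutamide replicate 1 (log2 change 0.093, adjusted p = 0.426), without DHT replicate 2 (0.11, adjusted p = 0.300) and with DESeq2 (0.0559), with a range of 0.00306 to 0.426.

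Set against control, cells with both compounds differed in B2M and in 1 further gene in each line. In Ver 1 gene was higher and 1 lower, beside 22.7% of all genes called, and in Vc likewise 1 and 1, beside 28.5%. The second gene was PSMB9 in Ver, a gene that passed the filter on low counts only through Ver control and enzalutamide libraries. It had 3 and 1 counts with both compounds, against 12 and 15 counts in control. The ratio was 0.156 (exact counting interval 0.0398 to 0.449; log2 change -2.52, SE 1.07, adjusted p = 0.0413). In Vc the second gene was NLRC5, with 0 and 1 counts with both compounds, against 7 and 6 in control. The ratio was 0.0744 (0.00175 to 0.496, log2 change -3.33, SE 1.77, adjusted p = 0.0336). Neither call is firm: each was lost without any 1 of its 4 libraries and with no filter on low counts, with adjusted p up to 0.324 for PSMB9 (range 0.0145 to 0.324) and 0.270 for NLRC5 (range 0.0331 to 0.270). NLRC5 was not kept by the filter with only the groups of the contrast, and DESeq2 gave no adjusted p for either gene.

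The third question is how the enzalutamide-kept line differed from its parallel line. In control medium, Ver had more of all 3 HLA heavy chain genes, and of PSMB9 and TAPBP, and less B2M than Vc. Of the 9 genes 5 were called higher and 1 lower in Ver, beside 18.9% of all genes called. The median log2 difference was 0.30 for the 9 genes and 0.012 for all genes. That 0.30 is the value of the middle gene, NLRC5, which was not called and had under 10 counts in 13 libraries. The count of calls and the median include HLA-E and PSMB9, which passed the filter on low counts through Ver libraries. Of the other 7 genes 3 were called higher and 1 lower.

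HLA-B had 2.33 and 1.97 CPM in Ver control, against 0.385 and 0.680 CPM in Vc control. HLA-C had 7.08 and 5.90 CPM in Ver control, against 3.08 and 2.29 CPM in Vc control. HLA-E had 32 and 20 counts (3.10 and 1.79 CPM) in Ver control, against 6 and 2 counts (0.462 and 0.170 CPM) in Vc control. The Ver libraries lay above the Vc libraries for each of the 3 genes. HLA-B was 4.01-fold higher (SE 0.56 on the log2 scale, adjusted p = 0.00194), HLA-C 2.40-fold (log2 difference 1.26, SE 0.29, adjusted p = 2.6e-04) and HLA-E 7.35-fold (2.88, SE 0.69, adjusted p = 1.1e-04). From the 52 against 8 counts of HLA-E the ratio was 7.68 (exact counting interval 3.62 to 18.7). The HLA-B call was lost without Vc control replicate 1 (log2 difference 1.64, adjusted p = 0.0723, range 0.00184 to 0.0723).

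B2M moved against its heavy chains, with 80.0 and 75.9 CPM in Ver control, against 99.9 and 101 CPM in Vc control (log2 difference -0.36, SE 0.065, adjusted p = 2.4e-06). TAPBP had 215 and 213 CPM in Ver control, against 175.7 and 176.5 CPM in Vc control (0.28, SE 0.056, adjusted p = 2.4e-05). The groups did not overlap for either gene. PSMB9 had 12 and 15 counts in Ver control, against 4 and 1 in Vc control, a ratio of 6.38 (exact counting interval 2.42 to 21.2; log2 difference 2.58, SE 1.00, adjusted p = 0.0302). That call was lost without any 1 of its 4 libraries and with no filter on low counts (adjusted p up to 0.292, range 0.00966 to 0.292). TAP1 and TAP2 were not called (log2 difference -0.26 and -0.19, with 95% intervals of -0.67 to 0.14 and -0.60 to 0.23), nor was NLRC5.

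**Figure D3:**
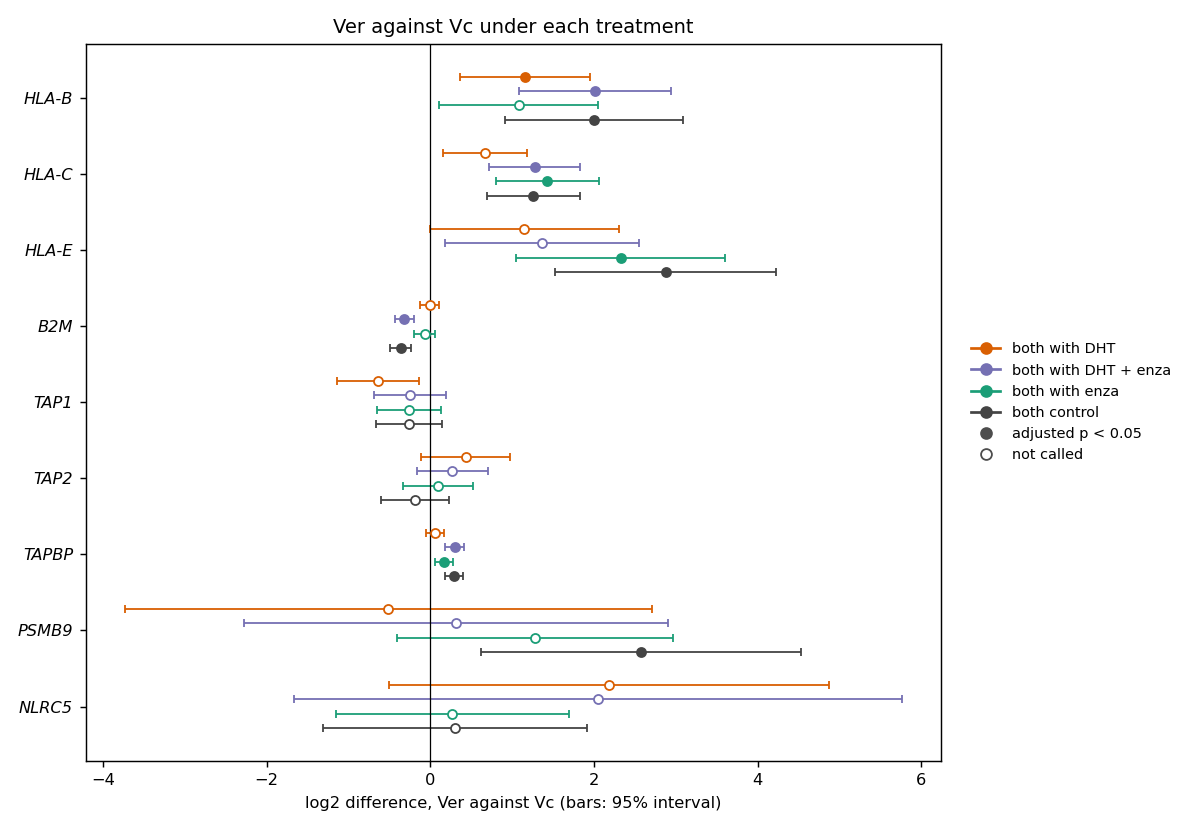
Log2 difference between Ver and Vc for the 9 genes (horizontal axis; above 0 is higher in Ver) under each treatment, with bars giving the 95% interval and filled points marking an adjusted p under 0.05. HLA-B, HLA-C and HLA-E lie above 0 under all 4 treatments, between 0.67 and 2.88, while B2M lies between -0.36 and -0.01.

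Under the other treatments fewer of the 9 genes were called, and a different set of the heavy chain genes passed in each: HLA-B with DHT, HLA-C and HLA-E with enzalutamide, and HLA-B and HLA-C with both compounds. With DHT in both lines 1 of the 9 genes was called higher and 0 lower, beside 17.3% of all genes; at an unadjusted p under 0.05 there were 4, and DESeq2 called 0. With enzalutamide alone 3 were higher and 0 lower, beside 16.6%, and with both compounds 3 were higher and 1 lower, beside 20.3%. The median log2 difference of the 9 genes was 0.43 with DHT, 0.27 with enzalutamide and 0.31 with both, beside -0.0057, -0.0067 and -0.0074 over all genes. Each median is the value of 1 gene that was not called there: TAP2 with DHT, NLRC5 with enzalutamide and PSMB9 with both. These counts and medians include HLA-E and PSMB9, which passed the filter on low counts mostly or only through Ver libraries. HLA-E is among the 3 genes called with enzalutamide.

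HLA-C had 6.28 and 8.63 CPM in Ver with both compounds, against 2.65 and 3.52 CPM in Vc (log2 difference 1.28, SE 0.28, adjusted p = 1.5e-04). With enzalutamide it had 5.98 and 4.72 CPM in Ver, against 2.16 and 1.76 CPM in Vc (1.43, SE 0.32, adjusted p = 1.8e-04). With DHT, where Vc was higher than its control, the log2 difference was 0.67 and was not called (adjusted p = 0.0615). It was called there without Ver DHT replicate 2 (0.96, adjusted p = 0.0186) and with only the groups of the contrast (0.0445), over a range of 0.0186 to 0.678. HLA-B differed by 1.16 log2 units with DHT (SE 0.40, adjusted p = 0.0281), 2.01 with both compounds (SE 0.48, adjusted p = 2.6e-04) and 1.08 with enzalutamide, which was not called (adjusted p = 0.128).

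Single Vc libraries weighed on HLA-B. With DHT its log2 difference was 1.84 without Vc DHT replicate 1 (adjusted p = 0.0141) and 0.74 without Vc DHT replicate 2 (adjusted p = 0.373). The DHT call was also lost without Ver DHT replicate 1 (0.176), without Ver DHT replicate 2 (0.0583) and with DESeq2 (0.120), over a range of 0.0119 to 0.373. With both compounds the log2 difference was 1.27 without Vc DHT plus enzalutamide replicate 1 (adjusted p = 0.0899) and 3.45 without replicate 2 (3.2e-05), the ends of its range.

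HLA-E had 20 and 23 counts in Ver with enzalutamide, against 5 and 5 in Vc, a ratio of 5.24 (exact counting interval 2.59 to 11.7; log2 difference 2.33, SE 0.65, adjusted p = 0.00225). With both compounds its log2 difference was 1.36 (adjusted p = 0.0915), called without Vc DHT plus enzalutamide replicate 1 (2.57, adjusted p = 0.0313, range 0.0313 to 0.542), and with DHT it was 1.15 and not called (adjusted p = 0.177). B2M was lower in Ver with both compounds (log2 difference -0.32, SE 0.060, adjusted p = 7.3e-06), and was not called with DHT or enzalutamide. TAPBP was higher in Ver with both compounds (0.30, SE 0.057, adjusted p = 1.1e-05) and with enzalutamide (0.17, SE 0.057, adjusted p = 0.0212). The enzalutamide call of TAPBP was lost without Vc enzalutamide replicate 1 (0.206), Vc enzalutamide replicate 2 (0.0582) or Ver enzalutamide replicate 1 (0.145) and with no filter on low counts (0.0544), over a range of 0.00993 to 0.206. TAP1 was lower in Ver with DHT without passing (log2 difference -0.64, adjusted p = 0.0668), and was called without Vc DHT replicate 1 (-0.97, adjusted p = 0.0140, range 0.0140 to 0.697).

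The 3 heavy chain genes were also summed, a step added after their values were seen. The sum was 13.9 ± 3.06 CPM in Ver with DHT, 12.7 ± 1.98 with DHT plus enzalutamide, 9.57 ± 1.60 with enzalutamide and 11.1 ± 2.01 in Ver control (mean ± SD, n = 2). In Vc it was 7.61 ± 0.848 CPM with DHT, 4.61 ± 0.956 with both, 3.33 ± 0.337 with enzalutamide and 3.54 ± 0.554 in control. Vc with DHT, its highest group, stayed below Ver with enzalutamide, the lowest Ver group. All 3 genes had already been called higher in Ver control, and HLA-E passed the filter mostly through Ver libraries. The separation of the sums is therefore no further test of that difference. A sum over paralogs is not touched by reads assigned to the wrong one of these 3 genes.

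Among markers of other cell types 1 gene of each list was called. The fibroblast markers were COL1A1, DCN and LUM. Their sum was 3.03 to 3.14 CPM in Ver with DHT, against 51.6 to 59.3 CPM in Ver control, and 2.05 to 3.15 CPM in Vc with DHT, against 14.7 to 16.5 CPM in Vc control. In the control libraries nearly all of it was LUM, which ran from 0.328 to 81.1 CPM, while DCN was at 0 counts in 10 libraries and COL1A1 stayed between 0.935 and 2.54 CPM. LUM was called lower with DHT (log2 change -5.73 in Ver and -4.89 in Vc) and higher in Ver control than in Vc control (1.95). Of 4 leukocyte markers only CD14 passed the filter on low counts. It was called lower with DHT in Ver (1 and 1 counts with DHT, against 3 and 17 in control; log2 change -3.19) and in Vc (4 and 3 counts, against 20 and 19; -2.27). The leukocyte sum was 0.178 to 0.830 CPM in Ver with DHT, against 0.776 to 1.61 CPM in Ver control, and 0.813 to 1.23 CPM in Vc with DHT, against 1.69 to 1.70 CPM in Vc control. Of 3 endothelial markers only VWF passed the filter, and it was called higher with both compounds than in control (log2 change 2.25 in Ver and 2.41 in Vc). The endothelial sum was 1.26 to 3.35 CPM in Ver with both compounds, against 0.358 to 0.970 CPM in Ver control, and 1.32 to 1.93 CPM in Vc with both, against 0.385 to 0.765 CPM in Vc control. CDH5, another endothelial marker, was at 0 counts in 14 libraries. The part of these markers in the results was not tested.

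The rest of the pathway was read from lists of genes with known roles. Of 6 genes for chaperones that fold and load the heavy chain, 5 were called higher with DHT in each line and none lower, beside 44.1% of all genes called in Ver and 44.3% in Vc. HSPA5 (BiP, the main chaperone of the endoplasmic reticulum) had 1.34 log2 units more in Ver and 1.30 more in Vc. PDIA3, which holds tapasin in the loading complex, changed by 1.34 in Ver and 1.31 in Vc, CALR by 0.90 and 1.01, UGGT1 by 1.11 and 1.09, and CANX by 0.82 and 0.76. PDIA3 reached 664 ± 15.4 CPM in Ver with DHT, against 262 ± 6.27 CPM in Ver control, and 680 ± 2.89 CPM in Vc with DHT, against 274 ± 28.6 CPM in Vc control (SD, n = 2). TAPBPL, a tapasin relative that edits the peptide cargo, was not called. The list's median log2 change was 1.01 in Ver and 1.05 in Vc.

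The proteasome and peptide trimming genes did not move as 1 group. In Ver 3 of 12 rose and 5 fell with DHT, and in Vc 4 rose and 3 fell, with medians of -0.13 and -0.092, beside the same 44.1% and 44.3% of all genes called. PSMB8, the immunoproteasome subunit gene beside TAP1, fell by 1.91 log2 units in Ver (1.04 ± 0.167 CPM with DHT, against 3.95 ± 0.103 CPM in control; adjusted p = 2.0e-05). In Vc it fell by 1.56 (0.940 ± 0.180 CPM with DHT, against 2.82 ± 0.261 CPM in control; adjusted p = 9.4e-04). The endoplasmic reticulum trimming peptidases parted: ERAP1 rose by 0.80 in Ver and 0.87 in Vc, while ERAP2 changed by -0.85 and -1.06. PSME2, an activator subunit gene of the proteasome, rose by 0.92 and 0.73, and the constitutive catalytic subunit gene PSMB6 by 0.51 and 0.41.

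Of 11 transcription factor genes of class I promoters, 1 was higher and 3 lower with DHT in Ver, and 1 higher and 2 lower in Vc (median -0.18 and -0.023). Those shares are below the 44.1% of all genes called in Ver and 44.3% in Vc. RFX5, the subunit of the RFX complex that binds the X box, had 11.9 ± 1.70 CPM in Ver with DHT, against 29.8 ± 3.10 CPM in Ver control, and 15.3 ± 3.01 CPM in Vc with DHT, against 37.5 ± 1.90 CPM in Vc control. Its log2 change was -1.32 (SE 0.14) in Ver and -1.30 (SE 0.13) in Vc. NFKB1 changed by -0.63 and -0.48 and RELA, its partner in NF-kB, by 0.63 and 0.44. NFYB changed by -0.44 in Ver and was not called in Vc. Of 10 interferon signalling genes tested, 4 were higher and 1 lower in Ver, and 5 higher and 1 lower in Vc (median 0.21 and 0.23), among them IFNGR1 (0.77 in Ver, 0.50 in Vc), IFNAR1 (0.38 and 0.44) and TYK2 (0.45 and 0.34). With 5 of 10 in Ver and 6 of 10 in Vc called, the list was not far from those shares.

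**Figure D4:**
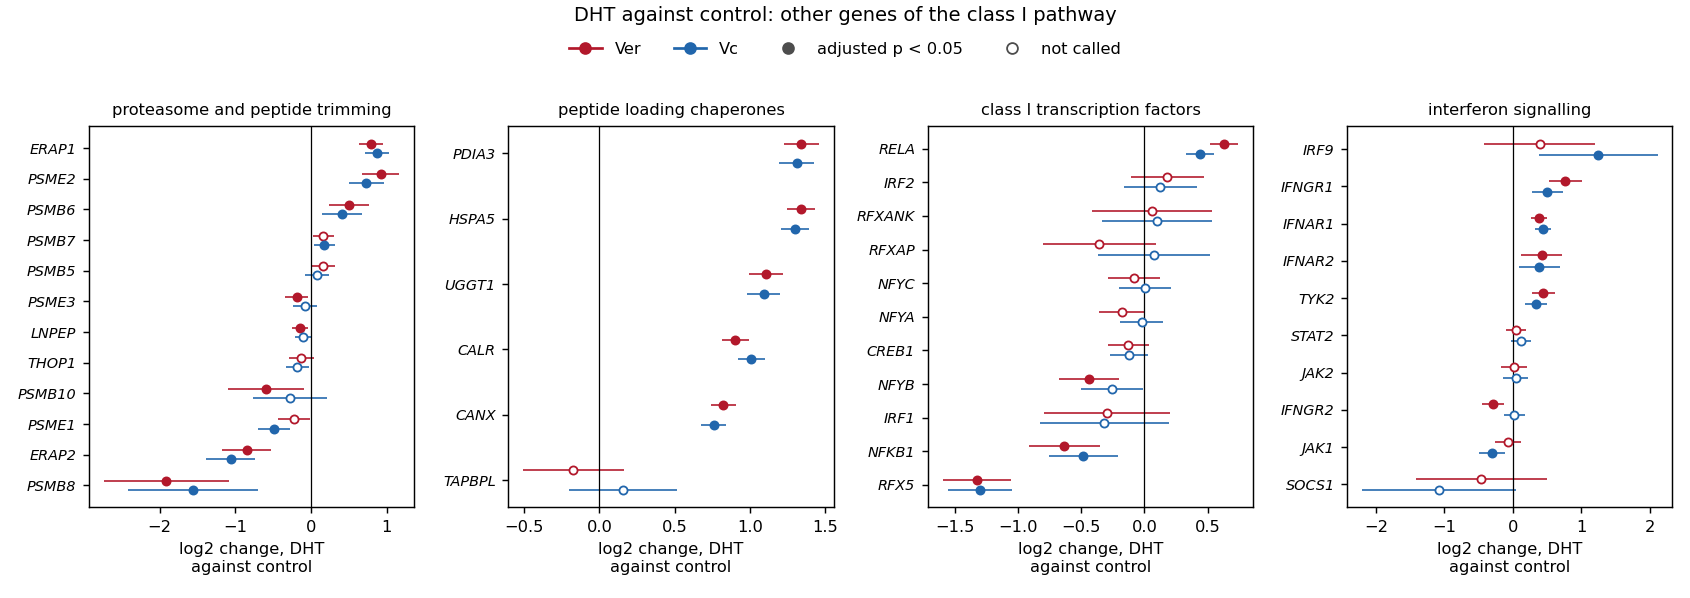
Log2 change with DHT against control (horizontal axis, a scale of its own in each panel) of other genes of the pathway, with Ver in red above Vc in blue for each gene, bars giving the 95% interval and filled points marking an adjusted p under 0.05. PDIA3, HSPA5, UGGT1, CALR and CANX lie between 0.76 and 1.34, PSMB8 lies lowest in its panel at -1.91 and -1.56, and RFX5 at -1.32 and -1.30.

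Between the untreated lines 18.9% of all genes were called. Of 12 proteasome and trimming genes 3 were higher in Ver and none lower, among them ERAP1 (54.9 ± 0.435 CPM in Ver control, against 41.4 ± 2.31 CPM in Vc control; log2 difference 0.41, adjusted p = 7.1e-05). Of 6 chaperone genes 3 were higher and 1 lower, a larger share than over all genes, with TAPBPL at 0.68 (adjusted p = 0.00173). Of 11 transcription factor genes 1 was higher (NFYB, 0.50) and 2 lower (CREB1, -0.47, and RFX5, -0.33). Of 10 interferon signalling genes none was higher and 1 was lower (IFNGR1, -0.33). The median log2 difference was 0.10 for the proteasome and trimming list, 0.14 for the chaperones, 0.12 for the transcription factors and 0.044 for interferon signalling, beside 0.012 over all genes.

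For likeness of pattern, each gene's 8 group means of log2 CPM (with 0.5 CPM added) were centred and compared with the mean centred profile of HLA-B, HLA-C, HLA-E and B2M. That profile was 0.79 in Ver with DHT, 0.52 with both compounds, 0.14 with enzalutamide and 0.22 in Ver control. In Vc it was 0.18 with DHT, -0.35 with both, -0.74 with enzalutamide and -0.77 in control. Of the 4 genes averaged into it, HLA-C lay at a root mean square difference of 0.16, HLA-B at 0.27, HLA-E at 0.41 and B2M at 0.61. Among members that are not part of it, TAPBP lay at 0.46, nearer than B2M, and TAP1 at 0.96. The profile thus describes B2M poorly. TAPBP stayed between 175.7 and 233 CPM over all libraries, so its distance need not mean that it shares the pattern. A gene in the average is drawn towards it by construction. A mean of at least 5 CPM was reached by 12428 genes, members included. The nearest of these that are not members were MANSC1 (0.063), ME1 (0.090), LITAF (0.11), TUBB6 (0.12) and HIST1H3E (0.12).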

How the data were processed

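Library names, treatments and doses are per the labels. For each library the authors deposited unnormalized read counts over 58302 genes. A further deposited table holds normalized signal, checked to equal counts divided by size factors of 0.801 to 1.21 and used for gene names only. Per the submitters' processing notes, FastQC 0.11.7, Trimmomatic 0.36-5, HISAT2, SAMtools and HTSeq 0.11.1 were used with GRCh38. Read assignment was unstranded in union mode, per the names of the count files. The annotation release is not given in the sources used here. Positions and exon lengths came from GENCODE 29, which holds 58039 of the identifiers. Reads in no gene were 45.0 to 50.6% of counted reads and ambiguous reads 7.09 to 8.55%, and both stayed out of library sizes.

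The test was run in edgeR 4.0.16 under R 4.3.3 (filterByExpr by group, TMM, robust quasi-likelihood F test, two-sided) over all 16 libraries in 8 groups, with 8 residual degrees of freedom and a common biological coefficient of variation of 6.01%. In each of 15 comparisons p-values were adjusted by Benjamini-Hochberg across 22553 genes, and under 0.05 counted as a call. Every adjusted p is from this test unless DESeq2 1.42.0 is named. The SE is the Wald standard error from the fitted variance, or from Poisson counting where larger. CPM values use TMM-adjusted library sizes. Counting intervals are exact at 95% and cover counting error only. Alternatives were DESeq2, DESeq2-type size factors, no low-count filter, only the groups of the contrast, a replicate block and leaving out each library. All 9 members were described. From the other lists at most 6 genes each were named, by smallest adjusted p with DHT or largest called difference between the untreated lines. The members and lists were chosen with earlier results of these data known, and some genes of the lists are not reported here.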

Additional observations from a re-analysis of the deposited data

Results flagged for a closer look

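The response of B2M to DHT differed between the lines, by a test of the difference itself. Its log2 change was 1.61 in Ver (238 ± 2.14 CPM with DHT, against 78.0 ± 2.87 CPM in control) and 1.26 in Vc (239 ± 0.856 CPM with DHT, against 100.3 ± 0.462 CPM in control; mean ± SD, n = 2), a difference of 0.35 (adjusted p = 0.00647). The call was lost without Ver control replicate 2 (adjusted p = 0.0970).

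The effect of enzalutamide on top of DHT on B2M was also called as different between the lines. The log2 change was -0.76 in Ver (141 ± 1.88 CPM with both compounds, against 238 ± 2.14 CPM with DHT) and -0.45 in Vc (176 ± 5.21 CPM with both, against 239 ± 0.856 CPM with DHT), a difference of -0.31 (adjusted p = 0.0283). This call was lost when any 1 of the 8 libraries was left out (adjusted p 0.0566 to 0.179) and with no filter on low counts (0.0640). Both differences use the same 4 DHT libraries, so they are not independent of each other.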

How the results depend on the processing

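Of 135 gene results 36 were called, and 21 of these held under every alternative that gave a value, while 15 were lost under at least 1. No called value reversed, and 59 values that were called in no fit changed sign. The replicate numbers do not pair the libraries (28 pairs, r from -0.049 to 0.047), and a replicate block changed 0 calls, as did DESeq2-type size factors. Depth limits HLA-B, HLA-E, PSMB9 and NLRC5, which had under 10 counts in 3, 7, 13 and 13 libraries.

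Counts of the 9 genes called moved as follows. For both compounds against control the count was 1 in each line with no filter and with DESeq2 (2 in the report), 1 in Vc with only the groups of the contrast, and 1 to 1 in each line when libraries were left out. For Ver against Vc with DHT it was 2 with only the groups of the contrast, 0 with DESeq2 and 0 to 2 with libraries left out. For the difference in enzalutamide effect on top of DHT it was 0 with no filter and 0 to 1 with libraries left out. With libraries left out it was 3 to 5 for DHT in Vc, 2 to 4 for both compounds against DHT in each line, and 0 to 2 for the difference in DHT effect. For Ver against Vc in control the count of 6 was 5 with no filter, 4 with DESeq2 and 4 to 5 with libraries left out. For DHT in Ver the count of 5 was 4 with DESeq2 and 4 to 5 with libraries left out, and for Ver against Vc with enzalutamide the count of 3 was 2 with no filter and 2 to 3 with libraries left out.

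Over all genes, the difference in DHT effect had 523 calls and 344 with DESeq2, and the difference in enzalutamide effect 5 calls, 10 with only the groups of the contrast and 2 with DESeq2. DESeq2 gave no adjusted p for some values of NLRC5, PSMB9 and HLA-E. A group with a library left out has 1 library, which is assumed to vary like the other groups. The causes were not tested.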

Other observations

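Genes next to the class I pathway were read in the same way, with 44.1% of all genes called with DHT in Ver and 44.3% in Vc. Of 4 tested genes for ligands of NKG2D, an activating receptor of natural killer cells, ULBP1 and ULBP2 rose in both lines and none fell, a share near that of all genes. ULBP1 had 14.3 ± 1.05 CPM in Ver with DHT, against 5.12 ± 0.161 CPM in Ver control, and 18.4 ± 2.05 CPM in Vc with DHT, against 4.38 ± 0.781 CPM in Vc control (mean ± SD, n = 2). Its log2 change was 1.48 in Ver (adjusted p = 3.7e-10) and 2.06 in Vc (adjusted p = 2.0e-17), and that of ULBP2 was 1.19 and 2.02. Of 8 MHC class II genes tested, 4 were higher and 1 lower in Ver and 4 higher in Vc, which in Vc is near that share too. The lower gene was HLA-DQB1, with 1 and 0 counts in Ver with DHT, against 7 and 10 counts in Ver control, named after its values were seen. HLA-DMB, a peptide exchange factor of class II loading, had 23.6 ± 1.66 CPM in Ver with DHT, against 14.6 ± 1.10 CPM in Ver control, and 30.5 ± 1.27 CPM in Vc with DHT, against 15.3 ± 1.39 CPM in Vc control. MICA, another NKG2D ligand gene, had 8 and 9 counts in Ver control, against 1 and 0 counts in Vc control, and was called (adjusted p = 0.0106).

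Among 7 genes known to control class I turnover, 3 were higher and 1 lower with DHT in Ver, and 4 higher and 1 lower in Vc, beside 44.1% and 44.3% of all genes called. SYVN1, a ubiquitin ligase of the endoplasmic reticulum, had 591 ± 13.1 CPM in Ver with DHT, against 185 ± 8.71 CPM in Ver control, and 531 ± 12.5 CPM in Vc with DHT, against 163 ± 14.3 CPM in Vc control. SUSD6 and TMEM127 encode partners in a complex known to send class I molecules for degradation, and they moved apart. SUSD6 changed by -0.79 log2 units in each line, and TMEM127 by 0.66 in Ver and 0.55 in Vc. Of 4 genes for subunits of PRC2, a complex known to silence class I genes in some tumours, EZH2 changed by -0.44 in Ver and -0.72 in Vc, SUZ12 by -0.30 and -0.21, and RBBP4 by 0.33 and 0.16.

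Between HLA-E and TAPBP, the outermost of the 7 genes on chromosome 6 (30489467 to 33314387), a stretch chosen after values were seen, 15 of 108 tested genes differed between Ver control and Vc control (10 higher, 5 lower). That is 13.9%, beside 18.9% of all genes, with a median log2 difference of 0.012. The 10 higher genes include the members HLA-E, HLA-C, HLA-B, PSMB9 and TAPBP, so the excess of higher genes is not a trait of their neighbours.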
